A study of Homo sapiens with 15 samples.

Results

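Genomic imprinting marks a gene during egg or sperm formation so that, in the offspring, mainly the copy from 1 parent is transcribed. The marks are stretches of DNA methylation that are kept through cell division, and imprinted genes tend to lie in clusters whose members are read from opposite parental copies. Many of them act on growth, on metabolism and on the upkeep of progenitor cells, and several remain active in the developing brain and retina. RNA levels of 10 such genes, DIO3, DLK1, PEG3, PEG10, MEST, NDN, MAGEL2, SNRPN, PLAGL1 and GRB10, were followed here out of 19684 genes in the expression tables. The genes were matched by symbol, and each had 1 identifier. The list was chosen by name with the FPKM and counts of P5 against P1 cultures in view, because DIO3 is among the genes that fell most there, so for that contrast every value of these genes is given as a description with no test. The tables hold no parental information, and whether a gene was read from 1 copy or both was not analysed here.

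The 15 libraries are poly(A) RNA of a human induced pluripotent stem cell (hiPSC) line, BC1-GFP, of genotype WT, and of cells grown from it, so that all groups share 1 line. There were 3 libraries each of undifferentiated hiPSCs, of neural retina dissected from retinal organoids (ROs) at day 70 (D70-RO) and at day 150 (D150-RO) of induction, and of Müller glial cells (iMGCs) cultured from D150-ROs and taken on day 5 of passage 1 (P1 iMGC) or of passage 5 (P5 iMGC). No agent was added to any group other than the culture media, and each RO library pooled several organoids. Levels are given as FPKM, fragment numbers scaled for transcript length and for the mapped total of the library, and differences as log2 fold changes of counts scaled between libraries, ± the standard error (SE) of the fit. A gene was called higher or lower when edgeR's quasi-likelihood test gave an adjusted p below 0.05 (Benjamini-Hochberg over all genes tested) and the change was at least 2-fold. Only genes with at least 1 FPKM in 3 of the 6 libraries compared were tested.

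Library totals lay between 11349600 and 20398755 counts, with a median of 17194154, and D70-RO replicate 2 had the lowest. All 5 pluripotency markers were above 1 FPKM in every hiPSC library and all 5 retinal progenitor markers in every RO library, as labelled. In iMGCs the summed FPKM of 6 mesenchymal genes ran from 3934 to 4196 in the P1 libraries and from 4080 to 4271 in the P5 libraries, while D150-ROs had only 24.9 to 28.8. RLBP1, a defining Müller glia gene, had 36.9, 33.98 and 29.6 FPKM in D150-ROs. It had 0 in each P1 iMGC library and 0.09, 0 and 0 in P5 iMGCs. VIM, another Müller glia marker, was above 2000 FPKM in all 6 iMGC libraries. Of the 7 Müller glia markers, 4 were called lower from D150-ROs to P1 iMGCs and 3 higher. Beside RLBP1, the lower ones were GLUL (log2 fold change −2.25), SOX9 (−2.39) and SLC1A3 (−5.73). The higher ones were VIM (1.66), CRYAB (2.08) and APOE (2.11). Photoreceptor genes summed to 843 to 967 FPKM in D150-ROs and to at most 0.56 in iMGCs. These shifts lie beside every difference between D150-ROs and iMGCs below, and their part in them was not tested. In bulk RNA, fewer cells of a type and less RNA per cell cannot be told apart.

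DIO3 encodes the deiodinase that inactivates thyroid hormone, and it is a gene of 1 exon of the DLK1-DIO3 cluster, at chr14:101561351-101563452 on the plus strand (GRCh38, GENCODE 29). DLK1 lies 823 kb from it at chr14:100725705-100738224 and encodes a transmembrane protein related to Notch ligands that holds back differentiation of several progenitor types. Both are read from the paternal copy. The 250 bases before the DIO3 start in RefSeq (GRCh38.p14) are shown because DIO3 is the gene around which the list was built. Capitals mark the CG dinucleotides, the sites that DNA methylation uses.
DIO3, chr14:101561245-101561494, plus strand: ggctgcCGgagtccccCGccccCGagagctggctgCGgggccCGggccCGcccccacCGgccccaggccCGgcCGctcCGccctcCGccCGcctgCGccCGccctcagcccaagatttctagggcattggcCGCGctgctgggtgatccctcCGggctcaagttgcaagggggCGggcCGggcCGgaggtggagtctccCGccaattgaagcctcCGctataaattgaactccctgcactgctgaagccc
The RefSeq window of 300 bases around this start holds 28 CG dinucleotides, and 73.8% of 35116 promoter windows of the same length hold fewer (median 14). The letters TATAAA, searched on both strands, lie 32 bases before the start on the strand of the gene. GENCODE 29 begins the gene earlier, at 101561351, so by that annotation the later part of the printed stretch, TATAAA included, lies inside DIO3. The letters occur in 11.5% of all windows. Of the 10 genes, 7 had at least 1 window in the table, 22 windows in all. DLK1, PEG3 and PEG10 had none.

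DIO3 was close to 0 in hiPSCs, highest in D70-ROs and lower at each later stage. It stood at 0.05, 0.13 and 0.19 FPKM in the 3 hiPSC libraries, which is 15 counts in all. In D70-ROs it was 22.1, 29.1 and 23.3 FPKM. D150-ROs had 8.72, 9.23 and 8.26 FPKM. The 3 P1 iMGC libraries had 1.27, 1.21 and 1.44 FPKM, and the 3 P5 iMGC libraries 0.05, 0.06 and 0.09. Every neighbouring pair of groups in the order of the means was free of overlap except hiPSCs and P5 iMGCs, which shared the bottom of the range. Such separation was common, and the groups did not overlap for 75.5% of all genes tested between hiPSCs and D70-ROs, 77.2% between the RO stages, 87.4% between hiPSCs and D150-ROs, 87.9% between D150-ROs and P1 iMGCs, and 39.5% between P1 and P5 iMGCs. DIO3 rose from hiPSCs to D70-ROs by 7.52 ± 0.31 on the log2 scale (adjusted p = 4.3e-09, edgeR), a 201-fold ratio of mean FPKM. Since, of these 2 groups, it reached 1 FPKM only in the D70-ROs, it could enter that test only through the group in which it was high. It fell from D70-ROs to D150-ROs by 1.73 ± 0.14 (adjusted p = 8.04e-06, edgeR) and still lay 5.79 ± 0.26 above hiPSCs at day 150 (adjusted p = 7.65e-10, edgeR). It fell again from D150-ROs to P1 iMGCs, by 2.09 ± 0.14 on scaled counts (adjusted p = 8.06e-10, edgeR). The ratio of mean FPKM, 6.69-fold, was larger than this fitted change. The 2 scales differed for all genes in this comparison, with a median change of −0.05 on scaled counts and −0.59 on log2(FPKM + 1).

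Between P1 and P5, the contrast behind the choice of these genes, DIO3 went from 138 counts to 7 over 3 libraries each. Its fitted log2 change was −4.17 ± 0.39, which is the third largest fall among 11366 genes. Of these 2 groups DIO3 reached 1 FPKM only in the P1 iMGCs, so it entered the fit only through the group in which it was high. Because DIO3 was picked by this fall, its size and rank are a description and not a test. On the log2(FPKM + 1) scale the same change was −1.11, since adding 1 compresses values near 0. The value of 0.05 to 0.09 FPKM at P5 rests on 2, 2 and 3 counts.

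**Figure D1:**
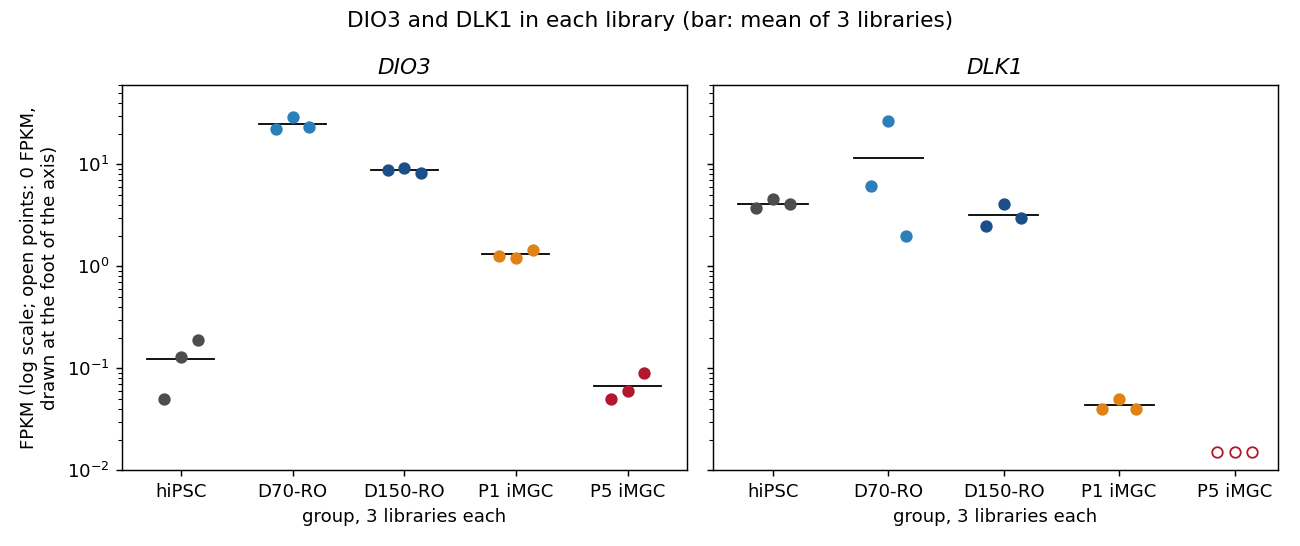
FPKM of DIO3 (left) and DLK1 (right) on a log axis in each of the 15 libraries, by group, with a bar at the mean of 3 libraries and open points for 0 FPKM. DIO3 peaks in D70-ROs at 22.1 to 29.1 FPKM and goes down in each later group to 0.05 to 0.09 FPKM at P5, while DLK1 spreads from 1.97 to 26.8 FPKM among the D70-ROs and is at 0 in all P5 iMGC libraries.

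DLK1 was present at a few FPKM in hiPSCs and ROs and was all but missing from the glial cultures. The hiPSC libraries had 3.69, 4.55 and 4.11 FPKM and the D150-RO libraries 2.50, 4.12 and 2.96, and these groups overlapped. The D70-ROs had 6.12, 26.8 and 1.97 FPKM, from 198, 483 and 58 counts, a 13.6-fold spread inside the group. The other members with any counts spread by at most 1.42-fold among the D70-ROs. The library with 26.8 FPKM, replicate 2, also had the lowest total, at 11349600 counts. The summed FPKM of 5 pigment epithelium markers in the same 3 libraries was 99.3, 132 and 82.1 in the same order of libraries as DLK1. Nearly all of it was PMEL, at 97.6, 130 and 79.9 FPKM, a gene that had 119 to 137 FPKM in hiPSCs. TYR went the other way, at 0.18, 0.18 and 0.60 FPKM. In replicate 2 the sum of 7 Müller glia markers was also the highest of the 3, at 2337 against 1568 and 1463 FPKM, and that of 4 proliferation genes the lowest, at 75.5 against 104 and 111. Most of the glial sum was VIM, at 1333, 2027 and 1245 FPKM in D70-RO replicates 1, 2 and 3. The part of these differences in the DLK1 level was not tested.

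In the comparison of D70-ROs with hiPSCs, DLK1 differed by 1.29 ± 0.68 on the log2 scale (adjusted p = 0.107, edgeR). The value was −0.22 without D70-RO replicate 2 and 1.8, then past the limits (adjusted p = 0.00478, edgeR), without D70-RO replicate 3. Its change between the RO stages was −2.05 ± 0.78 (adjusted p = 0.0393, edgeR), although the groups overlapped. That call was lost without D70-RO replicate 2 (−0.57, adjusted p = 0.165, edgeR) and without any 1 of the D150-RO libraries (−2.24 to −1.93, adjusted p 0.0776 to 0.107, edgeR). No direction of DLK1 within the ROs can be read from 3 libraries this far apart. D150-ROs against hiPSCs gave −0.78 ± 0.19 (adjusted p = 0.00225, edgeR), under the 2-fold limit. P1 iMGCs had 0.04, 0.05 and 0.04 FPKM from 1 count in each library, and DLK1 fell from D150-ROs by 5.66 ± 0.45 (adjusted p = 7.3e-09, edgeR). With 3 counts against 250, the ratio was 0.0115 with a 95% counting interval of 0.00237 to 0.0341. No count was seen in the P5 iMGCs, which by the 95% interval of the counts is at least 69.7-fold lower than D150-ROs on the library totals. P1 and P5 iMGCs both had at most 3 counts over the group, so no fold is given between them. RTL1, the retrotransposon-derived gene 142 kb from DLK1, did not exceed 0.46 FPKM in any library.

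MEST, which encodes a membrane protein of the hydrolase fold family and is read from the paternal copy, was, like DIO3, called in each of the 4 comparisons with a test. It lies at chr7:130486171-130506465 on the plus strand and has between 5 and 12 exons in its annotated coding transcripts. The hiPSC libraries had 14.4, 14.7 and 15.4 FPKM and the D70-RO libraries 88.3, 115 and 99.0. D150-ROs had 52.7, 57.2 and 52.9 FPKM. P1 iMGCs had 147, 152 and 150 FPKM, the highest group, and P5 iMGCs 28.1, 27.2 and 28.1. No 2 neighbouring groups in the order of the means overlapped. MEST rose by 2.63 ± 0.14 from hiPSCs to D70-ROs (adjusted p = 2.67e-08, edgeR) and was 1.5 ± 0.09 above hiPSCs at day 150 (adjusted p = 6.14e-09, edgeR). It fell by 1.13 ± 0.12 between day 70 and day 150 (adjusted p = 3.88e-05, edgeR), close to the 2-fold limit, and was under that limit without D70-RO replicate 2 (−1.0) and on the FPKM scale (−0.87). From D150-ROs to P1 iMGCs it rose by 2.12 ± 0.05 (adjusted p = 1.69e-15, edgeR). From P1 to P5 iMGCs its fitted change was −2.37 ± 0.04, the 13th largest fall of 11366 genes, given as a description. COPG2 and MESTIT1 overlap MEST on the other strand, and the sources used here do not say whether counting used strand, so reads shared with them cannot be told apart.

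CPA4, a carboxypeptidase gene 162 kb from MEST, was at most 1.55 FPKM in hiPSCs and ROs. In P1 iMGCs it had 585, 565 and 538 FPKM and in P5 iMGCs 236, 218 and 237. It rose by 10.59 ± 0.13 from D150-ROs to P1 iMGCs (adjusted p = 1.37e-18, edgeR), and its fitted change from P1 to P5 was −1.22. MEST and CPA4 were thus both higher at P1 than in D150-ROs. KLF14, a further imprinted gene of this chromosome region, did not exceed 0.06 FPKM.

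NDN, MAGEL2 and SNRPN lie on chromosome 15 in the Prader-Willi region and are read from the paternal copy. NDN (chr15:23685400-23687330, minus strand) and MAGEL2 (chr15:23643549-23647867, minus strand) are genes of 1 exon, 37.5 kb apart, and both encode proteins of the MAGE family. NDN is known for a role in the exit of neurons from the cell cycle. SNRPN (chr15:24823637-24978723, plus strand) encodes a protein of the spliceosome. The 250 bases before the RefSeq starts of NDN and MAGEL2 are printed because the 2 genes are neighbours with the same order of group means, although MAGEL2 groups overlap at 3 of the 4 steps of that order, and their promoters differ in CG content, with CG again in capitals.
NDN, chr15:23687306-23687555, minus strand: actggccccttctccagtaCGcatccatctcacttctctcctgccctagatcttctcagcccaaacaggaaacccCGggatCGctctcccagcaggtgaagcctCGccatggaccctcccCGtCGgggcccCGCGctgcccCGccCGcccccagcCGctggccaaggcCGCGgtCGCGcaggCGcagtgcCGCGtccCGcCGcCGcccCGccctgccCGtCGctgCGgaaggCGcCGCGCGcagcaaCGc
MAGEL2, chr15:23647868-23648117, minus strand: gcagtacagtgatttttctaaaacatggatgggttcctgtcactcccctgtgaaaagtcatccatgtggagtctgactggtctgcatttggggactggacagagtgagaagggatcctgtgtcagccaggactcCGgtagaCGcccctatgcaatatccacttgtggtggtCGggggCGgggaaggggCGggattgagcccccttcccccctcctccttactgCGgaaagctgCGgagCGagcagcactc
The window of 300 bases held 35 CG dinucleotides for NDN, and 85.9% of windows held fewer. For MAGEL2 it held 9, and 41.6% held fewer. TATAAA was found on neither strand in these windows.

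NDN was highest in D70-ROs and lowest in the glial cultures. In hiPSCs there were 34.4, 34.8 and 35.3 FPKM. At day 70 the values were 66.4, 73.6 and 64.3. D150-ROs, at 31.7, 37.2 and 34.6 FPKM, overlapped the hiPSCs. P1 iMGCs had 15.9, 15.9 and 17.5 FPKM and P5 iMGCs 13.2, 12.8 and 13.2. NDN fell from D70-ROs to D150-ROs by 1.21 ± 0.10 (adjusted p = 1.13e-05, edgeR), and on the FPKM scale the change was −0.96, under the 2-fold limit. The difference of 0.83 ± 0.12 between D70-ROs and hiPSCs was under that limit (adjusted p = 5.5e-05, edgeR). The change of −0.43 ± 0.08 from D150-ROs to P1 iMGCs was also under it (adjusted p = 7.38e-05, edgeR) but was −1.03 on the FPKM scale, past the limit.

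MAGEL2 was lower and flatter up to day 150. The hiPSC libraries had 4.32, 4.2 and 3.57 FPKM. The D70-RO libraries had 4.18, 4.92 and 4.73, and those of day 150 had 3.42, 3.96 and 4.12. D70-ROs and D150-ROs overlapped the hiPSCs, and the difference of D70-ROs from hiPSCs was 0.06 ± 0.16 (adjusted p = 0.75, edgeR). In P1 iMGCs it had 0.80, 1.27 and 0.57 FPKM, all below the D150-ROs, and it fell by 1.49 ± 0.20 (adjusted p = 4.54e-06, edgeR). P5 iMGCs had 0.51, 0.50 and 0.86 FPKM and overlapped P1, and MAGEL2 was too low to be tested there.

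SNRPN was by far highest in hiPSCs. The 3 hiPSC libraries had 647, 641 and 691 FPKM, the D70-ROs 134, 148 and 125, and the D150-ROs 97.8, 97.4 and 97.9. The iMGCs had 56.3, 57.1 and 61.4 FPKM at P1 and 52.7, 53.7 and 50.7 at P5. No neighbouring groups in this order overlapped. SNRPN fell by 2.39 ± 0.12 from hiPSCs to D70-ROs (adjusted p = 1.75e-08, edgeR) and lay 3.10 below hiPSCs at day 150 (log2 fold change −3.10 ± 0.08, adjusted p = 8.22e-12, edgeR). Between day 70 and day 150 the change was −0.71 ± 0.09 (adjusted p = 0.000156, edgeR), and from D150-ROs to P1 iMGCs −0.08 ± 0.05 (adjusted p = 0.132, edgeR), neither past the 2-fold limit. SNURF shares its transcripts with SNRPN, so reads of the pair may be split between them. SNURF itself had 0 to 5.52 FPKM over the 15 libraries and was called in no comparison, although its fall from hiPSCs to D70-ROs (−1.61) was past the limits by DESeq2 (−1.75), and by limma on log2(FPKM + 1) (−1.19). Further along this region, MKRN3 was at 0, 0 and 0.02 FPKM in hiPSCs and at 2.55, 2.38 and 2.77 in D150-ROs.

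PLAGL1 (chr6:143940300-144064599, minus strand) encodes a zinc finger transcription factor that restrains cell division and is read from the paternal copy. It was low in hiPSCs and higher in each later group up to the iMGCs. The hiPSC libraries had 0.49, 0.54 and 0.49 FPKM and the D70-RO libraries 5.34, 3.76 and 3.85. The D150-ROs had 7.20, 5.80 and 6.57 FPKM, P1 iMGCs 11.9, 10.3 and 11.1, and P5 iMGCs 9.65, 12.5 and 11.1. P1 and P5 overlapped, and the other neighbours in the order did not. PLAGL1 rose by 3.07 ± 0.24 from hiPSCs to D70-ROs (adjusted p = 5e-07, edgeR), a test it entered only through the D70-ROs, and was 3.75 ± 0.19 above hiPSCs at day 150 (adjusted p = 1.59e-09, edgeR). It rose by 1.46 ± 0.09 from D150-ROs to P1 iMGCs (adjusted p = 2.48e-10, edgeR), which was 0.69 on the FPKM scale and then under the limit. HYMAI overlaps PLAGL1 on the same strand and could share reads with it.

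GRB10 (chr7:50590063-50793462, minus strand), an adaptor that dampens signalling from insulin and related receptors, is imprinted in some human tissues only and read from both copies in many others. In hiPSCs there were 35.8, 36.2 and 33.0 FPKM. At day 70 the values were 59.9, 62.9 and 66.9. The values were 36.0, 35.6 and 37.1 in D150-ROs, 18.5, 18.4 and 19.5 in P1 iMGCs, and 18.6, 18.4 and 18.5 in P5 iMGCs. D70-ROs stood above all other groups and the iMGCs below, while hiPSCs overlapped D150-ROs and P1 overlapped P5. No difference of GRB10 passed the 2-fold limit. The nearest was −0.97 ± 0.08 from D70-ROs to D150-ROs (adjusted p = 6.66e-06, edgeR), which was past the limit without D70-RO replicate 1 (−1.02) and with upper-quartile scaling (−1.07).

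PEG10 (chr7:94656325-94669695, plus strand), a gene derived from a retrotransposon and read from the paternal copy, had the smallest ratio of highest to lowest library among the 9 of these 10 genes that were detected. The hiPSC libraries had 40.6, 35.9 and 37.5 FPKM. The D70-RO libraries had 24.7, 28.4 and 26.7, and those of day 150 had 40.7, 42.3 and 47.8. P1 iMGCs had 32.2, 31.0 and 33.2 FPKM and P5 iMGCs 48.9, 50.7 and 46.4. D70-ROs were the lowest group, and P5 iMGCs overlapped D150-ROs at the top. In the comparisons with a test no change passed the 2-fold limit, from −0.65 ± 0.12 between hiPSCs and D70-ROs (adjusted p = 0.000436, edgeR) to 0.48 ± 0.11 between D70-ROs and D150-ROs (adjusted p = 0.0029, edgeR). From D150-ROs to P1 iMGCs its direction depended on the scale, with 0.21 ± 0.06 on scaled counts (adjusted p = 0.00226, edgeR) and −0.43 on the FPKM scale. SGCE, which overlaps its start on the other strand, had 8.70 to 29.8 FPKM and rose by 1.07 ± 0.07 from D150-ROs to P1 iMGCs (adjusted p = 1.59e-09, edgeR), which was 0.46 on the FPKM scale and then under the limit.

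PEG3 (chr19:56810077-56840728, minus strand) encodes a zinc finger protein and is usually read from the paternal copy in brain and other tissues. It had 0 counts in all 15 libraries. A limit of 3 counts over all libraries allows a share of at most 1.17e-06% of the counts as the authors made them, which is no limit on expression: a gene that was not transcribed and a gene whose reads the annotation or the counting did not assign cannot be told apart in these files. ZIM2, which shares exons with PEG3, was also at 0 in every library. Such zeros were not rare, since 1621 genes (8.24%) had none in any library. Of the 5 genes within 200 kb of PEG3, itself and ZIM2 included, ZNF71 alone reached 1 FPKM in 3 libraries, at 1.51 to 7.55 FPKM.

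**Figure D2:**
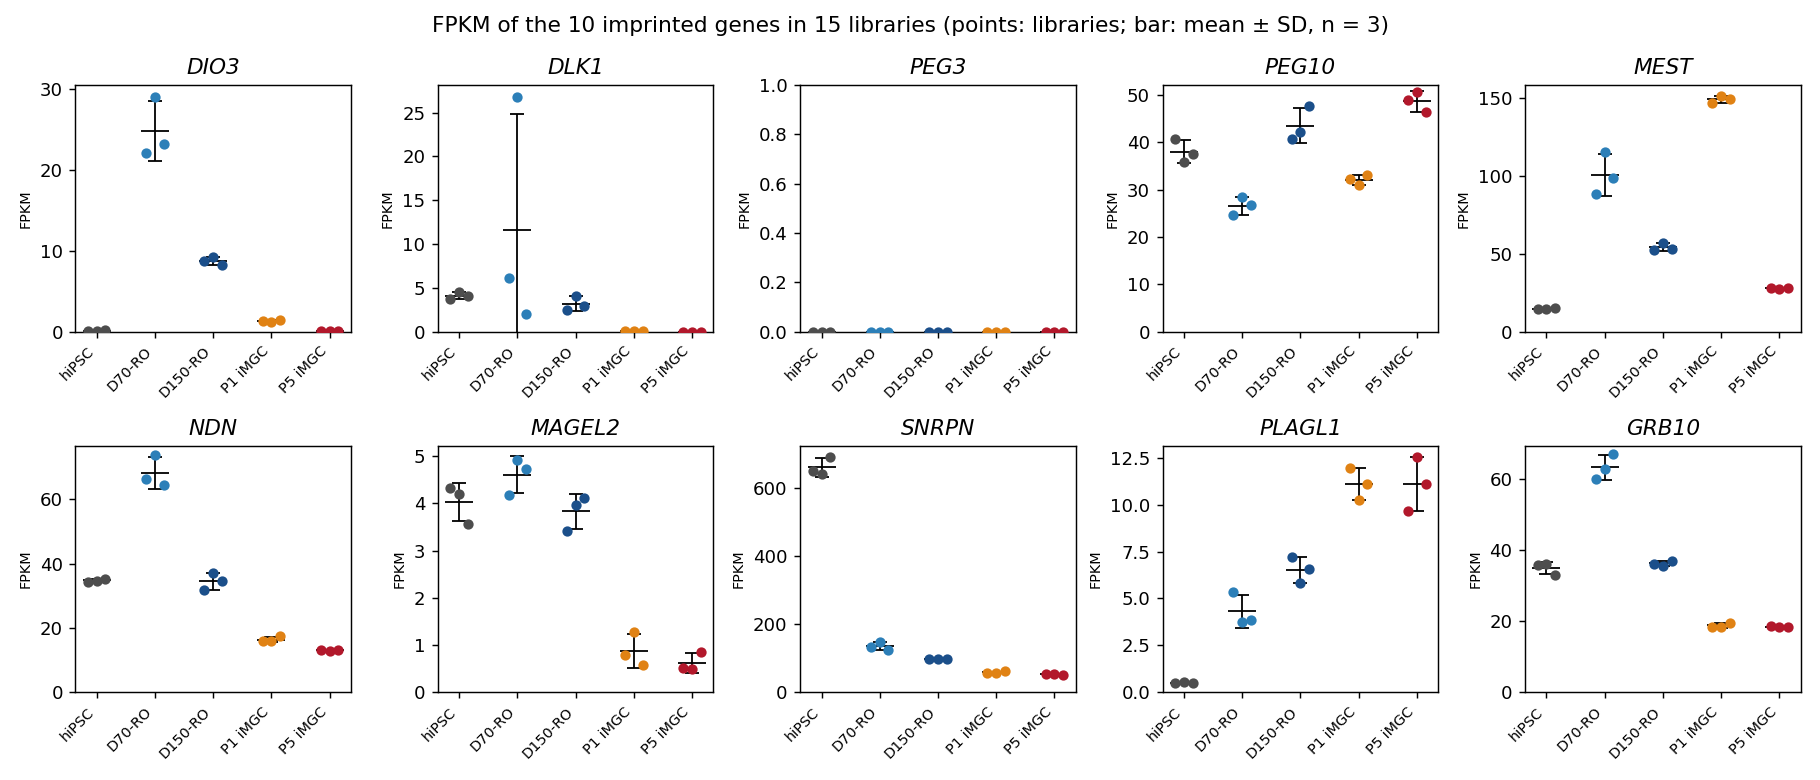
FPKM (linear axes from 0) of each of the 10 imprinted genes in the 15 libraries, with points for libraries and a cross bar at the mean ± SD of 3 libraries; the lower end of the DLK1 bar for D70-ROs is cut at 0. DIO3, NDN and GRB10 are highest in D70-ROs, SNRPN in hiPSCs and MEST in P1 iMGCs, PLAGL1 is highest in iMGCs, PEG10 stays between 24.7 and 50.7 FPKM, and PEG3 is at 0 throughout.

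Set side by side, the 10 genes did not move as a block. Between hiPSCs and D70-ROs, 9 of the 10 could be tested, of which DIO3, MEST and PLAGL1 were called higher and SNRPN lower. That is 4 of 9 against 43.5% of all 12954 genes tested (22.5% higher and 21.1% lower), and the median change was 0.83 for the 9 and 0.02 for all genes. Between D70-ROs and D150-ROs, DIO3, DLK1, MEST and NDN were called lower and none higher, 4 of 9 against 33.3% of all genes called (16.6% higher and 16.7% lower). The median was −0.97 for the 9 and −0.01 for all genes. That count was 2, DIO3 and NDN, without D70-RO replicate 2, and 1, DIO3, by limma on the FPKM scale. Between hiPSCs and D150-ROs, DIO3, MEST and PLAGL1 were called higher and SNRPN lower, against 58.8% of all genes called (29.8% higher and 29% lower). The 3 comparisons share libraries, so their results are not independent of each other. DIO3 and PLAGL1 could be tested against hiPSCs only through the RO libraries, where they were high, so these counts describe the genes that could be tested and not all 10.

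Between D150-ROs and P1 iMGCs, MEST and PLAGL1 were called higher and DIO3, DLK1 and MAGEL2 lower, 5 of the 9 tested, against 44.1% of all 12896 genes (20% higher and 24.1% lower). DLK1 and MAGEL2 passed the filter only through the D150-ROs. The P1 libraries also entered the contrast by which DIO3 was picked, and P1 iMGCs and D150-ROs come from 2 tables. With scaled counts the median change of all genes was −0.05 and 45.4% of the called genes were higher, and with log2(FPKM + 1) the median was −0.59 and 22.9% were higher. Taken relative to the median of all genes, PEG10 was at 0.26 on scaled counts and 0.17 on the FPKM scale, NDN at −0.38 and −0.43, SNRPN at −0.03 and −0.14, GRB10 at −0.32 on both, and PLAGL1 at 1.5 and 1.28. MEST was at 2.17 and 2.04. The genes called lower shrank more on the FPKM scale, with DIO3 at −2.05 and −1.48, MAGEL2 at −1.44 and −0.78, and DLK1 at −5.61 and −1.40. From D70-ROs to D150-ROs the FPKM scale moved the median to 0.19 and the share of called genes that were higher from 49.8% to 63.3%.

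Between P1 and P5 iMGCs, 7 of the 10 genes were in the fit, and the fitted change was a fall of more than 2-fold for DIO3 and MEST. No test is given for them, since the list was made with this contrast known. Of all 11366 genes, 2.92% were called (1.94% higher and 0.977% lower), and nothing is read from the members beside that share. The fitted log2 differences of the other 5 were −0.27 (NDN), −0.11 (SNRPN), 0.04 (PLAGL1), 0.08 (GRB10) and 0.67 (PEG10).

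**Figure D3:**
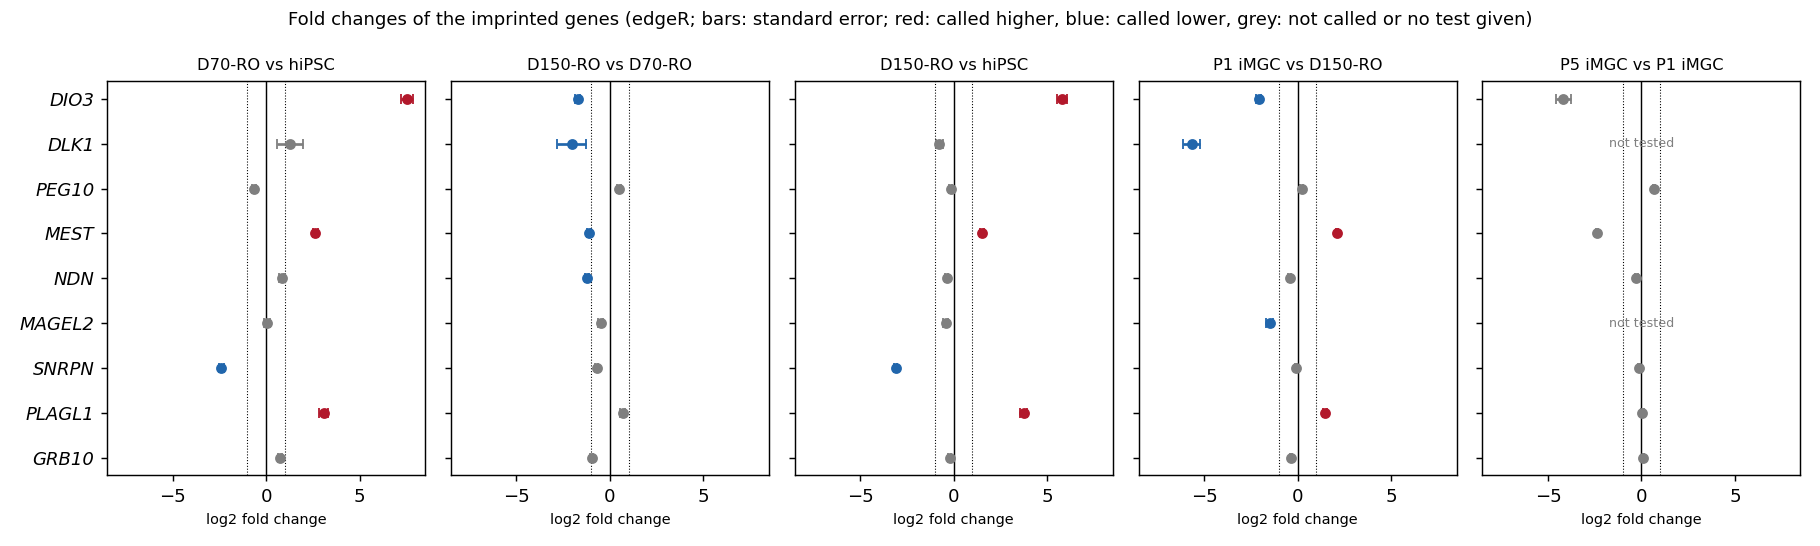
Log2 fold changes (x axis) of 9 imprinted genes in the 5 comparisons, with bars for the standard error of the edgeR fit, red for called higher, blue for called lower and grey for not called or, at P5, no test given; dotted lines mark a 2-fold change. DIO3 moves from 7.52 between hiPSCs and D70-ROs to −4.17 between P1 and P5, PEG10 and GRB10 stay within the dotted lines, and the DLK1 bars are wide wherever D70-ROs enter.

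A wider list of 28 other genes known to be imprinted in at least some tissues, 16 read from the paternal and 12 from the maternal copy, gives the setting. Between hiPSCs and D70-ROs, 18 could be tested, with 5 called higher and 5 lower, beside 22.5% and 21.1% of all genes. IGF2 could enter that test only through the D70-ROs, and PHLDA2, FAM50B and KCNQ1 only through the hiPSCs. IGF2, the fetal growth factor, had the largest rise, from 0.20, 0.33 and 0.32 FPKM to 7.50, 12.4 and 8.65 (log2 fold change 5.03 ± 0.31, adjusted p = 7.62e-08, edgeR). NAP1L5 followed with 2.73. PHLDA2, which limits placental growth, had the largest fall (−5.62 ± 0.72, adjusted p = 3.1e-05, edgeR), to 0, 0.34 and 0 FPKM. That is 3 counts against 182, with a counting interval of 0.00408 to 0.0592 for the ratio on the library totals. TFPI2 had the next fall (−3.04). Between D70-ROs and D150-ROs, 6 of 17 were called higher, led by TFPI2 (2.76) and L3MBTL1 (2.13), and 3 lower, with SLC22A18 (−1.55, and −0.96 on the log2(FPKM + 1) scale) and the cell cycle inhibitor CDKN1C (−1.37) in front, beside 16.6% and 16.7% of all genes. Between hiPSCs and D150-ROs, 8 of 20 were called higher, led by MKRN3 (7.61, 1 count in hiPSCs against 278, a ratio of hiPSCs to D150-ROs of 0.00292 with a counting interval of 7.37e-05 to 0.0164) and IGF2 (5.70), and 4 lower, with KCNQ1 (−3.95) and PHLDA2 (−3.23) in front, beside 29.8% and 29% of all genes. MKRN3, IGF2 and ZNF597 were below 1 FPKM in all hiPSC libraries and entered that test only through the D150-ROs. ZDBF2, also called higher, had 1.17, 0.86 and 0.78 FPKM in hiPSCs and likewise passed the filter only with the D150-ROs. KCNQ1, PHLDA2 and FAM50B were below 1 FPKM in all D150-RO libraries and entered that test only through the hiPSCs. ZNF597 was also called higher between the RO stages, a test it entered only through the D150-ROs. Read from the same parental copy as DIO3, DLK1 and MEST, the 10 paternally read genes tested between the RO stages had a median of 0.82, with 3 called higher and none lower. Among those called, MKRN3 had 0.76, 1.04 and 0.80 FPKM in D70-ROs and L3MBTL1 had 1.74, 0.92 and 1.70. Both passed the filter only with the D150-ROs, where they were high, so this count and median describe only the genes that could be tested.

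Between D150-ROs and P1 iMGCs, 5 of 20 were called higher and 7 lower, beside 20% and 24.1% of all genes. CPA4, ATP10A and PHLDA2 entered that test only through the P1 iMGCs, and IGF2 and MKRN3 only through the D150-ROs. CPA4 (10.59) and ATP10A (8.0) had the largest rises, and the size of the ATP10A rise rests on 4 counts over the D150-ROs. IGF2 had the largest fall (−8.77 ± 0.21, adjusted p = 2.3e-15, edgeR), from 15.4, 18.8 and 15.95 FPKM to 0.01, 0.03 and 0.07, and CDKN1C the next (−2.93 ± 0.14, adjusted p = 1.86e-11, edgeR). The size of the IGF2 fall rests on 5 counts over the P1 iMGCs. By parental copy, 1 of 10 paternally read genes was called higher and 5 lower, with a median of −1.03. Of 10 maternally read genes 4 were called higher and 2 lower, with a median of 0.48, and all genes had a median of −0.05. Between P1 and P5, CPA4, which was lower at P5, was the only one of 18 past both limits, beside 2.92% of all genes (1.94% higher and 0.977% lower).

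**Figure D4:**
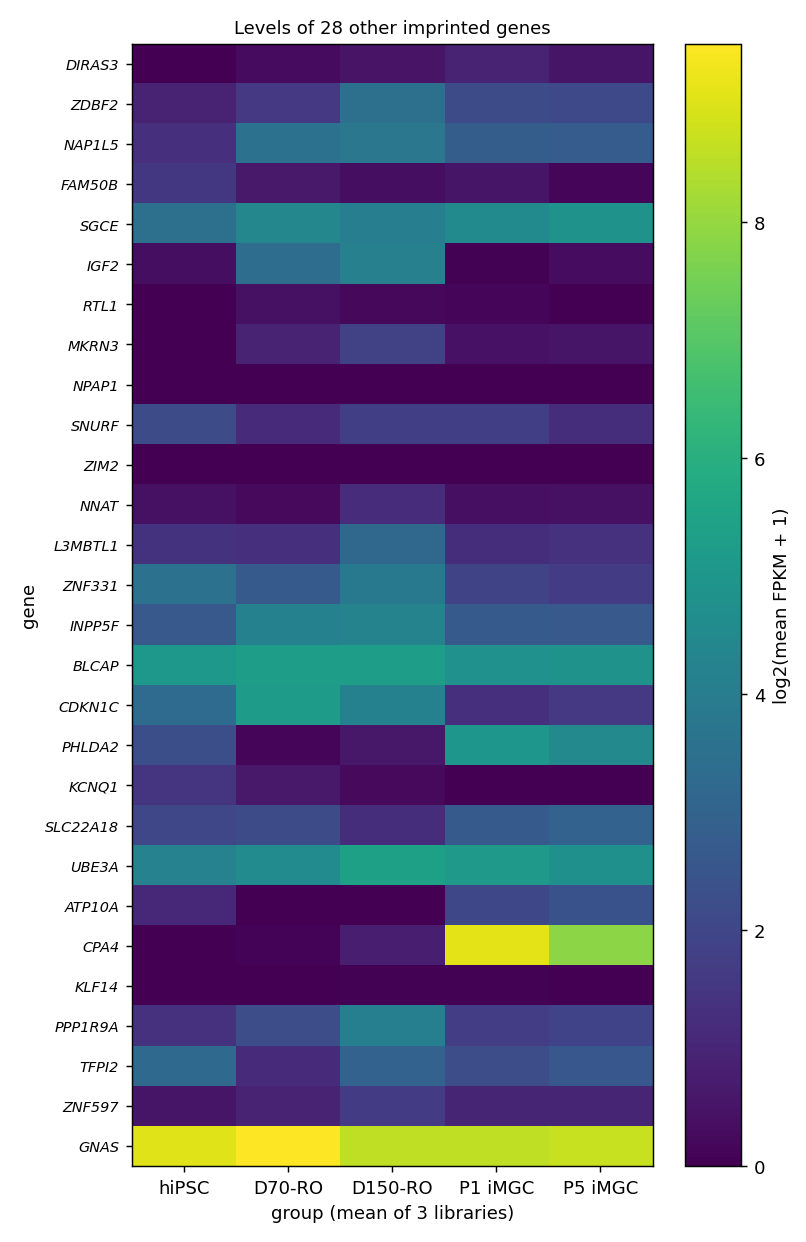
Mean level of 28 other imprinted genes (rows, the first 16 read from the paternal copy and the last 12 from the maternal copy) in the 5 groups (columns), coloured by log2(mean FPKM + 1) of 3 libraries. IGF2 is bright only in D70-ROs and D150-ROs, PHLDA2, ATP10A and CPA4 are brightest in iMGCs, and ZIM2, NPAP1 and KLF14 stay dark in every group.

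Since DIO3 inactivates thyroid hormone, a signal that in the retina takes part in cone photoreceptor maturation, the genes for its uptake, activation and receptors were followed with it. Of 11 such genes, 7 could be tested between hiPSCs and D70-ROs, where 4 were called higher and 1 lower, beside 22.5% and 21.1% of all genes. THRB and RXRG were below 1 FPKM in all hiPSC libraries and entered that test only through the D70-ROs. SLC16A10 was below 1 FPKM in all D70-RO libraries and entered it only through the hiPSCs. The receptor gene THRB rose from 0.65, 0.45 and 0.82 FPKM to 26.98, 36.3 and 33.1 (log2 fold change 5.40 ± 0.22, adjusted p = 4.36e-09, edgeR). THRA, the other receptor gene, rose by 2.31 ± 0.13 (adjusted p = 5.4e-08, edgeR) and RXRG, the gene of a partner receptor found in cones, by 7.24 ± 0.21 (adjusted p = 5.26e-10, edgeR). The coactivator gene NCOA1 rose by 1.68, the transporter gene SLC16A10 fell by 2.76, and the hormone-binding CRYM (0.53) and the corepressor gene NCOR1 (0.44) were not called.

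Between D70-ROs and D150-ROs, while DIO3 fell, DIO2, the deiodinase that activates the hormone, rose from 0.35, 0 and 0.12 FPKM to 3.77, 2.65 and 2.42 (log2 fold change 5.15 ± 0.46, adjusted p = 1.35e-05, edgeR). TTR, a carrier of the hormone, rose by 2.44 ± 0.54 (adjusted p = 0.00287, edgeR) and NCOA1 by 1.19 ± 0.10 (adjusted p = 1.21e-05, edgeR). For TTR the D70-ROs were far apart, at 0.80, 8.46 and 3.57 FPKM, against 20.2, 25.9 and 19.1 in D150-ROs. DIO2, TTR and NCOA1 were 3 of 8 tested, beside 16.6% of all genes called higher, and none was called lower. DIO2 and TTR entered the test only through the D150-ROs. THRB (0.06 ± 0.14, adjusted p = 0.715, edgeR) and RXRG (0.18 ± 0.11, adjusted p = 0.167, edgeR) were not called. From D150-ROs to P1 iMGCs, 7 of 8 were called lower and none higher, beside 24.1% and 20% of all genes. RXRG, TTR, CRYM, DIO2 and THRB entered that test only through the D150-ROs, where they were high. RXRG and TTR had no counts in P1 iMGCs, which by the 95% interval of the counts is at least 1831-fold and at least 228-fold lower on the library totals. The others called were CRYM (−6.02), THRB (−4.08), NCOA1 (−2.02), THRA (−1.10) and DIO2 (−1.02), and NCOR1 (−0.45) was not called. The DIO2 call was lost without D150-RO replicate 2 (−0.96) or P1 iMGC replicate 2 (−0.99), and on the FPKM scale NCOR1 (−1.13) was past the limits. Over the same libraries the photoreceptor markers went from 843 to 967 FPKM in sum to 0.12 to 0.35. DIO2 in P5 iMGCs was at 1.45, 1.74 and 0.73 FPKM against 0.78, 0.61 and 1.00 at P1, overlapping, while DIO3 went to 0.05 to 0.09. DIO1 and SLCO1C1 did not exceed 0.08 FPKM in any library.

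Of 8 factors that set up or keep imprints, 5 reached 1 FPKM in 3 libraries. TRIM28, the corepressor that zinc finger proteins bring to imprinted marks, fell at both RO steps, by 1.07 ± 0.15 to D70-ROs (adjusted p = 5.2e-05, edgeR) and by 1.85 ± 0.14 to D150-ROs (adjusted p = 4.78e-06, edgeR). Its level went from 476, 519 and 479 FPKM in hiPSCs to 91.4, 83.5 and 89.9 in D150-ROs. The maintenance methyltransferase gene DNMT1 fell by 1.84 ± 0.13 to D70-ROs (adjusted p = 1.8e-07, edgeR). At day 150 DNMT1 was above day 70 again without overlap, at 26.6, 28.02 and 31.3 FPKM against 16.5, 14.8 and 18.15, a difference of 0.59 ± 0.10 (adjusted p = 0.000515, edgeR) under the 2-fold limit. UHRF1, which brings it to replicated DNA, fell by 1.26 ± 0.19 (adjusted p = 8.81e-05, edgeR), by a further 1.72 ± 0.19 to D150-ROs (adjusted p = 5.54e-05, edgeR), and rose by 1.00 ± 0.10 to P1 iMGCs (adjusted p = 1.07e-07, edgeR). ZNF445, a zinc finger protein of imprinted marks, rose by 1.05 ± 0.11 between the RO stages (adjusted p = 3.04e-05, edgeR) and fell by 1.54 ± 0.06 to P1 iMGCs (adjusted p = 1.35e-12, edgeR). Those calls close to 2-fold depended on settings. TRIM28 to D70-ROs was under the limit without D70-RO replicate 1 (−0.98), UHRF1 to P1 iMGCs without D150-RO replicate 1 (0.97) or 3 (0.96), without P1 iMGC replicate 1 (0.92) and on the FPKM scale (0.25), and ZNF445 between the RO stages without D70-RO replicate 2 (0.96). CTCF, the insulator protein, was called in no comparison, but on the FPKM scale it was past the limits from D150-ROs to P1 iMGCs (−1.40). The summed FPKM of 4 proliferation genes was 247 to 330 in the hiPSC libraries, 75.5 to 111 at day 70 and 27.6 to 39.3 at day 150, and its part in these falls was not tested. None of the 5 was past both limits between P1 and P5, beside 2.92% of all genes.

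**Figure D5:**
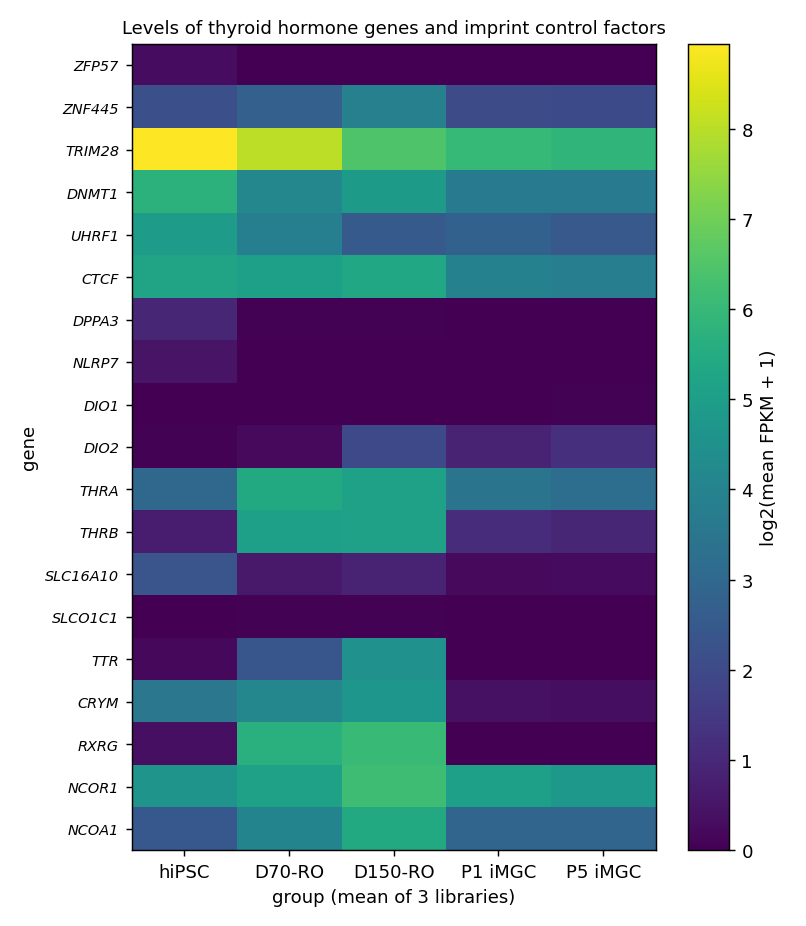
Mean level of 8 imprint control factors (upper rows) and 11 thyroid hormone genes (lower rows) in the 5 groups (columns), coloured by log2(mean FPKM + 1) of 3 libraries. THRB, RXRG and TTR are bright in ROs and dark in iMGCs, DIO2 is brightest in D150-ROs, and TRIM28 is brightest in hiPSCs.

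As a description, the genes with a pattern most like that of DIO3 over the 15 libraries, by the smallest root mean square difference of centred log2(FPKM + 1) among 13915 genes, were S1PR3 (0.17), SIX3 (0.33), BAALC (0.40), TPPP3 (0.43) and NRN1 (0.43). The same measure for DIO3 against a flat line was 1.81. S1PR3, a receptor for a signalling lipid, had mean levels of 2.45 FPKM in hiPSCs, 65.2 in D70-ROs, 27.5 in D150-ROs, 4.42 in P1 and 2.03 in P5 iMGCs, and SIX3, a transcription factor of the forebrain and eye field, had 2.94, 74.9, 45.3, 6.34 and 4.58. For DLK1, whose own value was 1.39, the nearest were C1QTNF4 (0.51), RPRM (0.52), ECSIT (0.54), TLE2 (0.55) and DHRS3 (0.56), none of them as close. With 3 libraries per group, these likenesses mostly compare 5 group means.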

How the data were processed

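Total RNA of 15 libraries was enriched for poly(A) RNA and sequenced from both ends. HISAT2 was used by the authors for mapping, StringTie for assembly and RSEM for the gene values. Versions, genome build and annotation are not given in the sources used here. The deposited expected counts are RSEM estimates per gene without normalization, and between 8.21% and 10.1% of them were not whole and were rounded. The deposited FPKM were scaled by the authors for transcript length and mapped reads. The study's design text names a further correction between batches and a second sequencing company, without saying which values or libraries it touched, so batch and group cannot be told apart. The labels give 3 independent experiments per group and the design text 2 for hiPSCs and ROs. The p-values measure the spread between these libraries, which may be partly technical. Another table, of D150-ROs and iMGCs, does not name the passage, and its 12 columns were not used.

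Each comparison was fitted on its own 6 libraries in R 4.3.3 with edgeR 4.0.16 (TMM factors, quasi-likelihood test, two-sided), for genes that reached 1 FPKM in 3 or more libraries, and p was adjusted over all of them. DESeq2 1.42.0, limma 3.58.1 on log2(FPKM + pseudocount of 1 or 0.1), other scaling factors, no filter, a test against a 2-fold change, 1 fit of all libraries, a replicate block and leaving out each library were the alternatives. The code was tested on simulated data. The 10 genes and the other gene lists were chosen with earlier results of these data known. The rule for the genes named was all 10 in every library, the 2 largest rises and falls of the other imprinted genes, all thyroid hormone and imprint control genes that reached 1 FPKM in 3 libraries, genes that share exons with a member or lie beside it, and the 5 genes nearest to DIO3 and to DLK1. One further gene, left out of the thyroid hormone list of 11, is not reported here. Of the neighbours, MKRN3, KLF14 and ZNF71 were singled out after their values were seen. FAM50B, ZDBF2 and ZNF597 are named only because they entered a test through 1 group. All 19684 identifiers are in GENCODE 29, which gave the positions. IGF2 has a further identifier, which was at 0. Microglia markers, checked as well, were at or below 0.94 FPKM in sum in ROs and iMGCs. Intervals and limits from counts cover counting error only. Same-numbered replicates did not pair, with correlations of their deviations between −0.0795 and 0.35.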

Additional observations from a re-analysis of the deposited data

How the results depend on the processing

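The number of the 10 imprinted genes called in each comparison with a test was the same, within 1.5 times, under every alternative run except between D70-ROs and D150-ROs. There it was 4, and 1 by limma with a pseudocount of 1 or of 0.1, 2 when tested against a 2-fold change, and 2 to 5 when each library was left out, with 2 without D70-RO replicate 2. All genes called there went from 4276 to 2830 when tested against 2-fold. Between P1 and P5 iMGCs they went from 332 to 694 with no filter, 152 by limma with a pseudocount of 1, and 161 when tested against 2-fold. The log2 fold change of DLK1 from hiPSCs to D70-ROs turned from 1.29 to −0.22 without D70-RO replicate 2 (range with each library left out, −0.22 to 1.80), and that of MAGEL2 from 0.06 to −0.03 without hiPSC replicate 3 and −0.02 without D70-RO replicate 2 (range −0.03 to 0.14). By limma (pseudocount 1, then 0.1), PEG10 and GRB10 between hiPSCs and D150-ROs turned to 0.19 and 0.20 and to 0.05 and 0.05, and PEG10 from D150-ROs to P1 iMGCs to −0.43 and −0.44. Of genes outside the 10, THRB and CTCF between D70-ROs and D150-ROs turned to −0.04 and −0.05 with upper-quartile scaling (ranges with each library left out, −0.11 to 0.17 and −0.03 to 0.11), CTCF between hiPSCs and D150-ROs to 0.13 by limma with either pseudocount, SNURF in that comparison to 0.10 without hiPSC replicate 2 (range −0.57 to 0.10), and SNURF from D150-ROs to P1 iMGCs to −0.06 and −0.10 by limma. None of these was called to begin with. The cause of these changes was not tested. Among values of the 10 genes under the alternatives, 610 were counted as unchanged, 15 lost a call, 5 gained one, 9 turned and 6 moved. In the 4 comparisons with a test, unchanged means the same direction and the same side of the limits. Between P1 and P5 it means a shift of at most the SE times the square root of 1.5, whatever the sign, and a larger shift was counted as moved. Among values of the other genes named, 771 were unchanged in this sense, 30 lost a call, 12 gained one, 10 turned and 2 moved. With a replicate block, for numbers that did not pair the libraries, 5662, 4317, 7845, 5691 and 333 genes were called in the 5 comparisons in the order given, the count of the 10 imprinted genes in the 4 comparisons with a test was 4, 4, 4 and 5 as without it, and no call of the 10 genes changed, while SNURF between hiPSCs and D70-ROs gained one (−1.65). With 3 libraries per group, DIO3 in P5 iMGCs and DLK1 in all iMGCs rest on a few counts.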
